A study of Mus musculus with 32 samples.

Results

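BALB/cByJ and DBA/2J are inbred mouse strains, the first albino and the second dilute brown, that carry the same haplotype, d, of the major histocompatibility complex (MHC). Their hippocampal transcripts were compared on 8 arrays, 4 for each strain, chosen by the strain name in the sample titles out of 32 arrays of 8 inbred strains in all. The mice of every strain were untreated, each strain was 1 pool of RNA from 6 mice, and the sources used here give neither age nor sex. The pool was copied into cDNA once, labelled cRNA came from that cDNA in 2 rounds (called preparations here), and 2 arrays were used for each. Arrays of 1 strain thus repeat 1 RNA pool, so the p-values cover only technical spread and say nothing of differences between animals, and fewer cells of a type and less RNA per cell cannot be told apart. The comparison asks which transcripts differ between strains that share an MHC haplotype.

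The MHC is a dense cluster of immune genes. Class I heavy chains, such as those encoded by H2-K1 and H2-D1, pair with beta-2 microglobulin and present peptides to T cells, and the alleles of these genes define the haplotype of a strain. In the brain, class I molecules are also known from neurons, where they take part in synapse remodelling, and the hippocampus is the structure on which spatial and contextual memory depend. Strains that share a haplotype are expected to have the same alleles there while differing at many loci elsewhere.

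Because H2-K1 and H2-D1 define the shared haplotype, the 200 bases before each start site are shown, from RefSeq on the mouse build GRCm38.p6. That genome is of C57BL/6J, which carries haplotype b, so these are not the sequences of the d haplotype. The H2-K1 stretch is chr17:34000348-34000547 on the minus strand, and the H2-D1 stretch is chr17:35262894-35263093 on the plus strand. Capitals mark the letters GGGATTCCC (a kappa B motif), TTTCACTTC (an interferon-response motif) and ATTGG or its complement CCAAT, each searched on both strands.
H2-K1: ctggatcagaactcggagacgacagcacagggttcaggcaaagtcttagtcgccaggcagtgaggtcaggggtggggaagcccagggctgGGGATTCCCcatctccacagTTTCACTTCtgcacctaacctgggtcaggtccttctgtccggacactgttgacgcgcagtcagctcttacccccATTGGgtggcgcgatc
H2-D1: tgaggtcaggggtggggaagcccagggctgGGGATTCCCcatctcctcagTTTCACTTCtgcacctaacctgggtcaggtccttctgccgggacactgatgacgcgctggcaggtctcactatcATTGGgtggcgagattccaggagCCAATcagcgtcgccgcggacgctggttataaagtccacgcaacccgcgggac
Aligned at the kappa B motif without gaps, 127 of 140 shared positions (90.7%) were identical. Among 27025 mouse promoters of the same length, 60 (0.222%) held the kappa B letters, 90 (0.333%) the interferon-response letters and 8112 (30.0%) ATTGG. A match is a description of letters, not of a bound site.

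Signals were read as log2 with a floor of 1, and the arrays of a preparation were averaged before the test. The brightest 7453 of 12422 non-control probe sets entered the test, and they cover 5660 named genes. Median signal was 38.9 to 43.65 on the BALB/cByJ arrays and 35.0 to 39.85 on the DBA/2J arrays, and the number of arrays limits the precision. Correlation of an array with the other arrays of its strain averaged 0.891 to 0.911 for BALB/cByJ and 0.940 to 0.955 for DBA/2J. The arrays also carry 6 control probe sets for the sense strand of actin and Gapdh, which labelled cRNA is not meant to bind. Their mean log2 signal was 7.64, 7.84, 7.80 and 7.60 on the BALB/cByJ arrays, against 5.29, 5.28, 5.64 and 5.50 on the DBA/2J arrays. All BALB/cByJ arrays thus lay above all DBA/2J arrays, while of 24 arrays of the other 6 strains 7 were high (6.95 to 7.51) and 17 low (4.91 to 5.64). Between BALB/cByJ and DBA/2J the control signal and the strain cannot be told apart. Results are therefore given with and without this signal as a covariate, whose slope comes from differences between the preparations of a strain. The 7 high arrays of the other strains all belonged to preparation 1, of A/J, C3H/HeJ, SJL/J and FVB/NJ. The slope rests mostly on these strains, where signal and preparation cannot be told apart. Whether it holds for the gap between BALB/cByJ and DBA/2J was not tested. Of 17 markers of hippocampal neuron fields on the array 15 were bright enough to be tested, while Coch and Pcp4 had log2 signals of at most 3.07 in BALB/cByJ and 1.89 in DBA/2J. Prox1 and Tdo2, at 3.92 to 5.78 in BALB/cByJ and 4.09 to 4.81 in DBA/2J, lay near the limit for testing. Wfs1, of CA1 neurons, had log2 signals of 7.70 to 8.17 in BALB/cByJ and 7.41 to 7.89 in DBA/2J, and Neurod6, of pyramidal neurons, had 6.10 to 7.0 in BALB/cByJ and 7.62 to 8.02 in DBA/2J.

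Of 7453 probe sets, 435 (5.84%) differed between BALB/cByJ and DBA/2J at an adjusted p under 0.05. BALB/cByJ was higher at 152 (2.04%) and lower at 283 (3.8%). With arrays centred on their median, 726 passed, 113 higher and 613 lower, a share of 15.6% higher against 34.9%, and that centring moved the median difference of all probe sets to -0.157, against -0.035. A difference of 2-fold or more was found at 218 (2.92%), 97 higher and 121 lower, and 23 differed by 4-fold or more. The 4 arrays of one strain did not overlap the 4 of the other at 393 of the 435, against 1528 (20.5%) of all probe sets tested. With the preparation number as a block, 1801 probe sets (24.2%) passed, all 435 among them. That block takes preparations of the same number as paired, although arrays 3 and 4 of BALB/cByJ and DBA/2J carry different days. With the control signal as a covariate 38 (0.51%) passed, 19 higher and 19 lower, all among the 435, and over genes 26 of 5660 (0.459%) passed. The direction was unchanged for all 435 with the covariate, and the median size of their difference was 0.81 with it against 1.00 without.

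The MHC region, taken as the genes from H2-K1 to Mog in the order of the reference gene table, held 245 genes, of which 61 were tested. One gene passed, C2, a component of the classical complement pathway, which makes 1.64% of the region's genes against 5.76% of all genes tested. C2 had log2 signals of 5.52, 5.24, 5.24 and 5.19 on the BALB/cByJ arrays, against 3.68, 4.01, 4.41 and 4.10 on the DBA/2J arrays. The strains did not overlap, and the difference was 1.25 ± 0.34 (adjusted p = 0.045), with 1.05 and an adjusted p of 0.50 under the covariate. Here and below a difference is BALB/cByJ minus DBA/2J on the log2 scale with its standard error. Its call was also lost with median centring (adjusted p = 0.051), with quantile normalization, without filtering on low signal, with the 2 strains alone (adjusted p = 0.10), on the 2 days that both strains share, arrays 1 and 2 (adjusted p = 0.051), and when any 1 of the 4 preparations was left out. It was lost without 4 of the 8 arrays of these strains, each in turn, and without 13 of the 24 arrays of the other strains.

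The other 60 genes of the region did not pass, which does not show that they were equal. Their differences were as wide as those of genes elsewhere: the median absolute difference was 0.39 for the region and 0.37 for all genes tested. BALB/cByJ was higher at 35 and lower at 26 of the 61, and the arrays of the strains did not overlap at 12 (the share over all genes was 21.1%). With the preparation block 17 of the 61 passed, 27.87% against 24.8% of all genes. The remaining 27 pairs of strains, most of which differ in haplotype, had 0 to 3 of these genes past the test, with a median of 1. Their share over all genes ran from 0.34% (FVB/NJ against SJL/J) to 7.35% (BALB/cByJ against C57BL/6J), so these counts have unlike backgrounds. DBA/2J against SJL/J had 3 of the region's genes (4.92%, against 1.29% of all genes). BALB/cByJ against C57BL/6J also had 3 (4.92%, against 7.35%). The pairs of strains share arrays with one another, and no test was made between pairs.

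**Figure D1:**
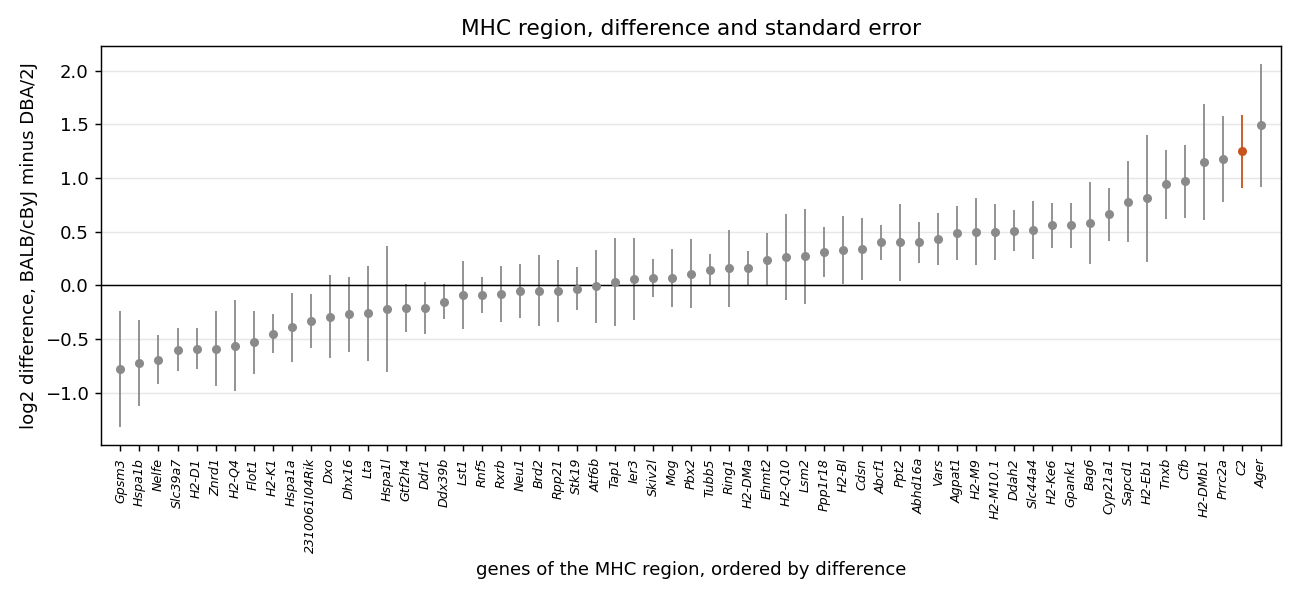
Log2 difference between BALB/cByJ and DBA/2J for the 61 tested genes of the MHC region, ordered by the difference. Points are differences of strain means and bars are standard errors. C2, in orange, is the gene that passed the test, and 57 of the 61 differences lie within 1 on the log2 scale.

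Apart from C2, differences beyond 1 were measured for Ager, Prrc2a and H2-DMb1. Ager, the receptor for advanced glycation end products, had log2 signals of 6.62, 6.32, 5.74 and 5.20 in BALB/cByJ, against 4.19, 4.53, 4.34 and 4.84 in DBA/2J. These groups did not overlap, but the preparations of BALB/cByJ lay apart and the difference of 1.49 ± 0.57 had an adjusted p of 0.14 (0.033 with the block). Prrc2a had 7.34, 6.99, 7.50 and 7.69 in BALB/cByJ, against 6.12, 6.34, 6.20 and 6.15 in DBA/2J, again without overlap. Its difference was 1.18 ± 0.40 with an adjusted p of 0.099 (0.0081 with the block).

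Among the classical heavy chains, neither H2-K1 nor H2-D1 passed, and both measured lower in BALB/cByJ. The probe set for H2-D1 gave 7.11, 7.66, 7.39 and 7.03 on the BALB/cByJ arrays, against 7.95, 8.25, 7.60 and 7.75 on the DBA/2J arrays. One BALB/cByJ array reached into the DBA/2J range, and the difference was -0.59 ± 0.19 (adjusted p = 0.081, and 0.012 with the block). For H2-K1 the signals were 7.33, 7.09, 7.61 and 7.38 in BALB/cByJ and 7.82, 7.58, 7.91 and 7.89 in DBA/2J. The overlap was again by 1 array of each strain, and the difference was -0.45 ± 0.18 (adjusted p = 0.15, and 0.042 with the block). Both probe sets are of a type that can bind transcripts of several class I genes, a further probe set for H2-D1 differed by 0.06 (adjusted p = 0.87), and a further probe set for H2-K1 by 0.01 (adjusted p = 0.99).

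DBA/2J ranked first and BALB/cByJ second of the 8 strains at both genes. For H2-D1 the strain means were 7.30 in BALB/cByJ and 7.89 in DBA/2J, while the other 6 strains had 6.06 to 6.96. For H2-K1 they were 7.35 in BALB/cByJ and 7.80 in DBA/2J, and 6.53 to 7.29 in the others. Between BALB/cByJ and C57BL/6J, next below it, the difference was 0.34 for H2-D1 (adjusted p = 0.26) and 0.07 for H2-K1 (adjusted p = 0.84). In comparisons that share the DBA/2J arrays, H2-D1 passed between DBA/2J and each of the 6 strains other than BALB/cByJ. In those that share the BALB/cByJ arrays, H2-D1 passed only against C3H/HeJ, as did H2-K1.

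**Figure D2:**
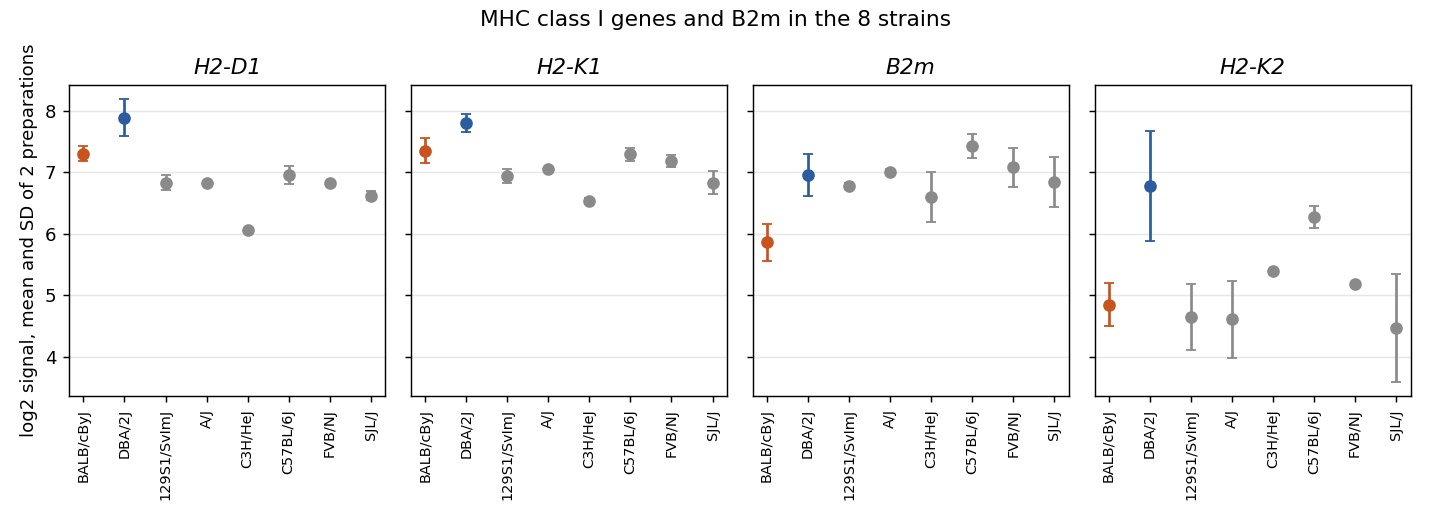
Log2 signal of H2-D1, H2-K1, B2m and H2-K2 in the 8 strains, as the mean and SD of 2 preparations, with BALB/cByJ in orange and DBA/2J in blue. DBA/2J is highest for H2-D1, H2-K1 and H2-K2, BALB/cByJ is second for H2-D1 and H2-K1, and for B2m BALB/cByJ is lowest, at 5.86 against 6.95 in DBA/2J.

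Of 31 class I and class II genes listed, 19 were on the array and 11 were tested, and 0 of them passed (limma, adjusted p, against 5.76% of all genes). The list leaves out the class I locus H2-K2, which passed and is described below. With the block 4 passed (36.4%, against 24.8% of all genes) and with the covariate 0, and 5 had an unadjusted p under 0.05. H2-M3, which presents formylated peptides, had the widest difference of the list. Its log2 signals were 6.19, 5.82, 6.66 and 5.51 in BALB/cByJ, against 5.61, 4.22, 3.86 and 5.10 in DBA/2J. They overlapped at 1 array of each strain, and the difference was 1.34 ± 0.49 (adjusted p = 0.12, and 0.014 with the block). H2-DMb1, a chain of the complex that loads peptide on class II, measured 5.56, 4.10, 3.98 and 4.55 in BALB/cByJ and 3.46, 3.46, 3.71 and 2.96 in DBA/2J. These did not overlap, though most lay near or under the limit of 4.41 for the mean signal of a tested probe set (difference 1.15 ± 0.54, adjusted p = 0.21). The class II chain H2-Eb1 differed by 0.81, with 1 BALB/cByJ array at 6.69 and the other 3 at 4.19 to 4.50. H2-Ke6, which lies in the region but encodes a steroid dehydrogenase, differed by 0.56 (adjusted p = 0.14, and 0.038 with the block). It is 1 of the 4 list members that passed with the block. The other members were H2-M2 at 0.59, H2-Bl at 0.33, H2-Q10 at 0.26, H2-DMa at 0.16 and H2-Q4 at -0.56, all with overlapping arrays.

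H2-K2, a further class I locus that the limits of the region and the list above leave out, was among the 12 genes lowest in BALB/cByJ. Its probe set, which can also bind several class I transcripts, gave 5.04, 5.16, 4.66 and 4.55 on the BALB/cByJ arrays, against 7.98, 6.84, 6.01 and 6.30 on the DBA/2J arrays. All BALB/cByJ values lay below all DBA/2J values, which themselves spread over almost 2 log2 units. The difference was -1.93 ± 0.48 (adjusted p = 0.034, and 0.30 with the covariate). In the other strains the mean ran from 4.47 to 6.27, so BALB/cByJ, at 4.85, lay within their range.

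Of 11 tested genes that prepare or carry peptides for the MHC, 3 were lower in BALB/cByJ and 0 higher (27.27%, against 5.76% of all genes). With the block 3 passed as well, which is 27.3% against 24.8% of all genes and so near the background. The median difference of the list was 0.00, against -0.05 for all genes tested, and 0 of the 3 passed with the covariate. B2m, the light chain that every class I molecule needs, had log2 signals of 5.46, 5.84, 5.89 and 6.26 in BALB/cByJ, against 7.47, 6.91, 6.75 and 6.67 in DBA/2J. The groups did not overlap, BALB/cByJ was below the other 7 strains, and the difference was -1.09 ± 0.27 (adjusted p = 0.035). Ctss, the cathepsin that trims the invariant chain of class II and that microglia express, had 8.17, 8.14, 7.62 and 8.29 in BALB/cByJ and 8.83, 8.66, 8.85 and 8.70 in DBA/2J, a difference of -0.71 ± 0.15 (adjusted p = 0.022). Pdia3, a chaperone of the peptide-loading complex, was lower by -1.11 ± 0.30 (adjusted p = 0.045), and 1 DBA/2J array, at 6.50, lay within the BALB/cByJ range. Arrays 2 and 3 of BALB/cByJ, 1 of each preparation, were at 5.89 and 6.02, below arrays 1 and 4, at 6.82 and 6.75. The standard error of Pdia3, taken over preparation means, does not reflect this spread. With the covariate the differences were -0.61 for B2m, -0.55 for Ctss and -0.83 for Pdia3, with adjusted p of 0.58, 0.38 and 0.52.

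Of 365 genes with a probe set past the test, 330 had arrays that did not overlap, and the 12 highest and 12 lowest of these are described here by what they do. With H2-K2, described above, 1 class I gene is among them. Of these 24 genes, 10 passed with the covariate, and 16 with the block and the covariate together, a fit added after the data were seen, in which 2 genes of the MHC region also passed. AI506816, Ank3, Ctse, Erdr1, Grin2b, Irs2 and Kif5b passed in each of 25 alternatives in which they were tested, and the other genes lost their call in 1 or more. Among the 24, the probe sets of AI506816, Ank3, Ctse, Erdr1, H2-K2, Prp2, Prpf19, Ssbp4 and Wnk1 may read several transcripts. The same holds for those of Pde1a, Penk and Gja1, given below. Of 67 probe sets past the test that stand for the genes named here or for list members, 19 had a further tested probe set of the same gene. A further one passed in the same direction for 4 of these, had the opposite sign for 5 and passed in the opposite direction for 0.

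Erdr1, a secreted factor first described in red cell differentiation, had the widest difference upward. Its log2 signals were 11.81, 11.94, 11.85 and 11.43 in BALB/cByJ, against 8.57, 9.0, 8.75 and 8.83 in DBA/2J. More than 2 log2 units separated the groups, and the difference was 2.97 ± 0.14 (7.84-fold, adjusted p = 4.6e-08). A further probe set differed by 2.00 (adjusted p = 0.045), and with the covariate the difference was 2.81 (adjusted p = 5.8e-06). Across strains the means ran from 11.76 in BALB/cByJ and 11.61 in SJL/J down to 8.79 in DBA/2J, the lowest of the 8.

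Irs2, the adaptor that carries the insulin and IGF receptor signal, had 7.57, 6.66, 7.59 and 7.36 in BALB/cByJ, against 3.61, 3.97, 5.03 and 4.86 in DBA/2J. No values overlapped, and the difference was 2.93 ± 0.39 (7.62-fold, adjusted p = 0.00083, and 0.034 with the covariate). DBA/2J was the lowest of the 8 strains, with C57BL/6J next at 5.79 and the other 6 between 7.23 and 7.40.

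Receptors and ligands of fast transmission differed at single genes. Grin2b, the NR2B subunit of the NMDA receptor, had log2 signals of 7.61, 7.22, 7.68 and 6.91 in BALB/cByJ, against 4.55, 4.07, 5.19 and 5.10 in DBA/2J. The groups were clear of each other by more than 1 log2 unit, and the difference was 2.63 ± 0.26 (6.19-fold, adjusted p = 5.7e-05, and 0.0055 with the covariate). In the other 6 strains the mean was 6.50 to 7.26, and DBA/2J, at 4.73, was 1.77 below the next strain, FVB/NJ (adjusted p = 0.0021). Grin2a, the NR2A subunit, had 6.43, 6.43, 6.66 and 6.36 in BALB/cByJ and 5.58, 5.97, 5.58 and 5.38 in DBA/2J. The arrays did not overlap, and the difference was 0.84 ± 0.21 (adjusted p = 0.034, and 0.21 with the covariate). These were the 2 of 11 tested glutamate receptor genes that passed, both higher in BALB/cByJ, which is 18.18% against 5.76% of all genes; 4 (36.4%, against 24.8%) passed with the block and 1 with the covariate (0.459% of all genes).

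Of 10 tested genes for GABA synthesis, transport and reception, 1 was higher and 1 lower in BALB/cByJ (20%, against 5.76% of all genes). With the block 3 passed (30.0%, against 24.8% of all genes). Slc32a1, the transporter that fills inhibitory vesicles, had 8.80, 7.99, 9.15 and 8.77 in BALB/cByJ, against 6.77, 6.58, 6.95 and 7.26 in DBA/2J. The difference was 1.79 ± 0.22 (3.45-fold, adjusted p = 0.00058, and 0.010 with the covariate), and DBA/2J lay below the other 7 strains, whose means were 8.68 to 9.12. Gad1, an enzyme that makes GABA, ran the other way, with 9.29, 9.15, 9.21 and 9.29 in BALB/cByJ and at least 9.92 on every DBA/2J array. The arrays of each strain lay close together without overlap, and the difference was -0.72 ± 0.14 (adjusted p = 0.0092, and 0.21 with the covariate).

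Of 23 vesicle release genes tested, 2 were higher and 2 lower in BALB/cByJ (17.39%, against 5.76% of all genes), with 11 (47.8%, against 24.8%) past the test under the block and 0 with the covariate. Cplx2, a complexin that clamps fusion of vesicles, had 9.89, 9.68, 10.50 and 10.55 in BALB/cByJ, against 8.17, 7.88, 8.42 and 8.49 in DBA/2J (difference 1.92 ± 0.32, adjusted p = 0.0049). Syt7, a slow calcium sensor, had 6.53, 6.54, 6.69 and 6.81 in BALB/cByJ and 4.43, 5.69, 5.02 and 4.52 in DBA/2J (1.73 ± 0.45, adjusted p = 0.040). Neither gene had overlapping arrays. Syt1, the fast calcium sensor, was lower in BALB/cByJ, with 9.57, 9.03, 8.34 and 9.84 against 10.47, 10.29, 10.30 and 10.38 in DBA/2J (-1.16 ± 0.17, adjusted p = 0.0021). Its BALB/cByJ arrays 2 and 3, 1 of each preparation, were the low ones. The standard error, taken over preparation means, does not reflect this spread. Rab3b, a vesicle GTPase, had 4.19, 4.37, 5.92 and 3.90 in BALB/cByJ and 6.25, 5.95, 6.65 and 6.99 in DBA/2J, where the highest BALB/cByJ array almost met the lowest DBA/2J array (-1.86 ± 0.43, adjusted p = 0.025). With the covariate the 4 differences were 1.17, 1.07, -0.84 and -1.59, with adjusted p of 0.20, 0.57, 0.12 and 0.37.

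All 5 of the plasticity genes that passed, of 24 tested, were higher in BALB/cByJ (20.83%, against 1.73% of all genes higher and 5.76% called); 7 (29.2%, against 24.8%) passed with the block and 1, Pde1a, with the covariate. Ntrk2, the receptor of the growth factor BDNF, had 6.95, 6.38, 7.01 and 6.74 in BALB/cByJ, against 4.26, 1.89, 5.48 and 5.71 in DBA/2J. The groups did not overlap, but the DBA/2J arrays spread widely and the first preparation was the lower (difference 2.44 ± 0.59, adjusted p = 0.030, and 0.27 with the covariate). Without DBA/2J preparation 1 the difference was 1.18 and did not pass (adjusted p = 0.17), and without its preparation 2 it was 3.70. Camk2a, the kinase subunit most abundant at excitatory synapses, had 9.22, 9.39, 10.21 and 9.77 in BALB/cByJ and 7.55, 8.00, 8.28 and 8.25 in DBA/2J. Its difference was 1.63 ± 0.27 (adjusted p = 0.0049, and 0.064 with the covariate), and a further probe set differed by 0.97 (adjusted p = 0.0099). Pde1a, a phosphodiesterase that calmodulin activates, differed by 0.97 ± 0.18 (adjusted p = 0.0082, and 0.028 with the covariate), Ncam1 by 0.91 ± 0.21 and the calmodulin-binding Nrgn by 0.89 ± 0.17. The median difference of the list was 0.38, against -0.05 for all genes tested, and its summed signal was 13309 to 15823 on the BALB/cByJ arrays and 11383 to 12168 on the DBA/2J arrays. Of 14 immediate early genes tested 0 passed with limma (5 had an unadjusted p under 0.05). With the block 3 passed (21.4%, against 24.8% of all genes). Egr1 differed by 0.01 and Jund by 0.61 (adjusted p = 0.29).

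**Figure D3:**
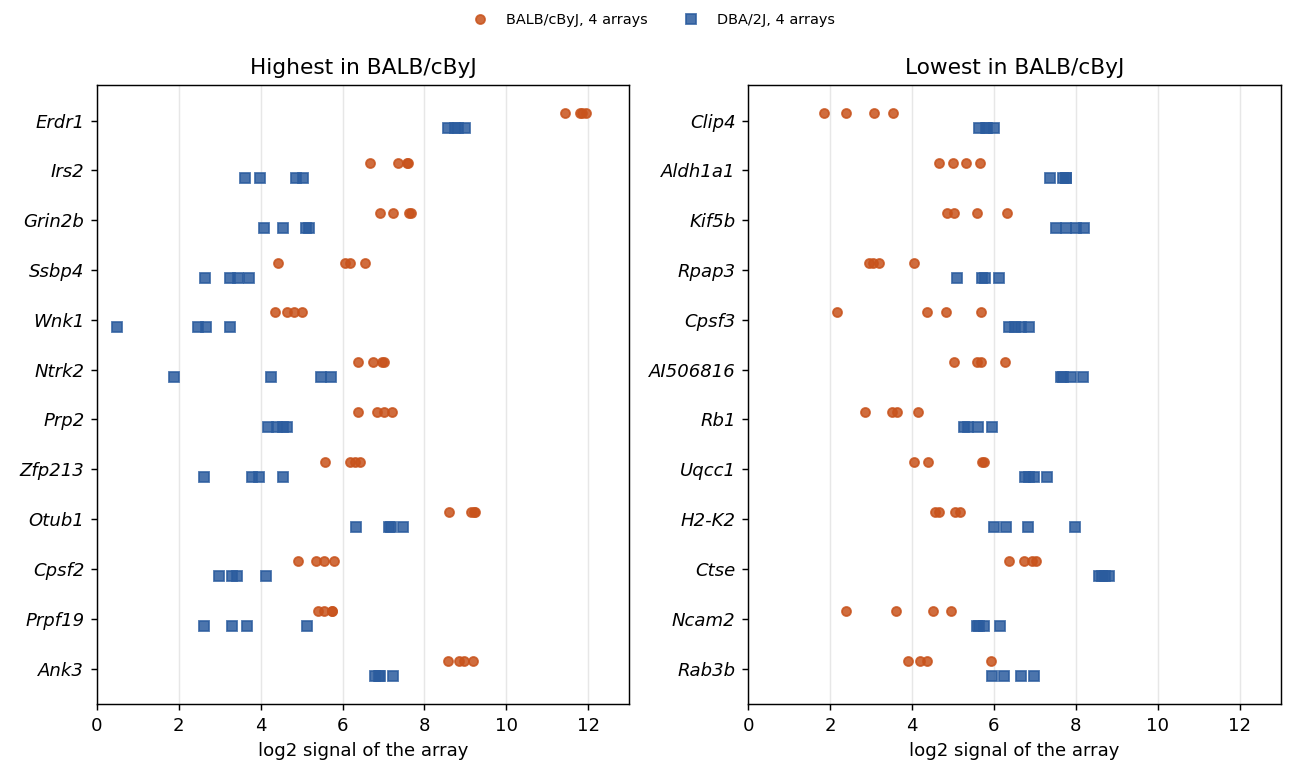
Log2 signal on each array of the 12 genes highest and the 12 lowest in BALB/cByJ among those past the test whose arrays did not overlap, with 4 BALB/cByJ arrays in orange and 4 DBA/2J arrays in blue. Erdr1 lies highest of all, at 11.43 to 11.94 in BALB/cByJ and 8.57 to 9.0 in DBA/2J, while genes such as Clip4, Rpap3 and Wnk1 have 1 strain under the limit of 4.41 that the mean of a tested probe set had to reach.

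Among structural and signalling genes, Ank3, the ankyrin that anchors channels at the axon initial segment, had 8.96, 8.84, 9.18 and 8.58 in BALB/cByJ, against 6.80, 7.23, 6.90 and 6.92 in DBA/2J. This probe set, which may read several transcripts, differed by 1.93 ± 0.16 (adjusted p = 1.4e-05, and 0.0011 with the covariate), while the other Ank3 probe set tested differed by 0.16 (adjusted p = 0.63). Wnk1, a kinase that sets ion cotransport, had 4.82, 4.34, 4.64 and 5.0 in BALB/cByJ and 2.66, 2.46, 3.26 and 0.49 in DBA/2J, a difference of 2.48 ± 0.47 (adjusted p = 0.010, and 0.017 with the covariate). With an offset of 16 added to every signal before log2 it was 0.97 (adjusted p = 0.053) and with 64 it was 0.37 (adjusted p = 0.11), and the call was also lost with the 2 strains alone (adjusted p = 0.072). Of its 2 other probe sets, 1 differed by 2.14 (adjusted p = 0.022) and the brightest by -0.14 (adjusted p = 0.68). The probe sets of both genes thus disagreed.

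Kif5b, a heavy chain of the kinesin motor that moves cargo along axons, was lower in BALB/cByJ, with 5.02, 4.85, 5.59 and 6.31 against 8.20, 7.52, 8.00 and 7.76 in DBA/2J. No arrays overlapped, and the difference was -2.43 ± 0.31 (5.37-fold, adjusted p = 0.00058, and 0.032 with the covariate). Clip4, a microtubule-binding protein of the CLIP family, had 3.54, 2.38, 1.85 and 3.07 in BALB/cByJ, against 5.84, 5.80, 5.64 and 6.01 in DBA/2J, which is -3.12 ± 0.60 (adjusted p = 0.010, and 0.35 with the covariate). This was the widest difference downward at the floor of 1, but with an offset of 16 it was -1.66, against -2.05 for Kif5b, and with 64 it was -0.76 and did not pass (adjusted p = 0.055). Nefl, the light neurofilament chain, had 6.78, 6.63, 6.44 and 6.81 in BALB/cByJ and 8.28, 8.46, 8.26 and 8.09 in DBA/2J. Its difference was -1.61 ± 0.23 (adjusted p = 0.0015, and 0.017 with the covariate). The neurofilament gene Nefm measured the other way without overlap, with 7.01 to 7.39 in BALB/cByJ and 6.37 to 6.59 in DBA/2J. Nefh overlapped, with 6.77 to 7.37 and 7.20 to 7.52, and neither of these passed. The 8 strains split at Nefl: DBA/2J and 3 other strains, C57BL/6J and C3H/HeJ among them, had 7.92 to 8.31, and BALB/cByJ, next at 6.67, lay 1.25 below the lowest of these (adjusted p = 0.012). The adhesion molecule Ncam2 was lower in BALB/cByJ by -1.92 ± 0.40 (adjusted p = 0.017, and 0.35 with the covariate), with 1 array at 2.38 and the others at 3.60 to 4.94.

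Some of the 24 genes act in making or processing RNA, grouped here after their values were seen. Cpsf2, a subunit of the complex that cleaves and polyadenylates transcripts, had 5.34, 4.90, 5.55 and 5.80 in BALB/cByJ, against 3.31, 4.13, 2.98 and 3.42 in DBA/2J (1.94 ± 0.41, adjusted p = 0.019, and 0.024 with the covariate). Its other tested probe set differed by 0.27 (adjusted p = 0.66), and on the shared days the call was lost (1.40, adjusted p = 0.078). Cpsf3, the endonuclease of the same complex, had 4.36, 4.82, 2.17 and 5.68 in BALB/cByJ and 6.38, 6.52, 6.67 and 6.86 in DBA/2J (-2.35 ± 0.31, adjusted p = 0.00083, and 0.065 with the covariate). Without array 3 of BALB/cByJ, the lowest, the difference of Cpsf3 was -1.47 (adjusted p = 0.035). Prpf19, a ubiquitin ligase of the spliceosome, was higher in BALB/cByJ by 1.93 ± 0.34 (adjusted p = 0.0065, and 0.037 with the covariate), although its other probe set differed by 0.10 (adjusted p = 0.71) and the call was lost on the shared days. Rpap3, which helps to assemble RNA polymerase II, was lower by -2.37 ± 0.54 (adjusted p = 0.024), and by -1.0 with the covariate (adjusted p = 0.57).

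In metabolism, Aldh1a1, which makes retinoic acid from retinaldehyde, had 5.0, 4.66, 5.32 and 5.66 in BALB/cByJ, against 7.75, 7.36, 7.77 and 7.68 in DBA/2J. No array overlapped, and the difference was -2.48 ± 0.33 (5.60-fold, adjusted p = 0.00077, and 0.056 with the covariate). BALB/cByJ was the lowest strain, but SJL/J, next at 5.81, did not differ from it by the test (0.65, adjusted p = 0.36). Uqcc1, which helps to assemble complex III of the respiratory chain, had 4.40, 4.06, 5.76 and 5.71 in BALB/cByJ and 6.98, 6.76, 6.85 and 7.30 in DBA/2J (-1.99 ± 0.36, adjusted p = 0.0082, and 0.19 with the covariate). The preparations of BALB/cByJ differed from each other here, both lay below DBA/2J, and without the first the difference was -1.24 (adjusted p = 0.046).

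Of 58 tested genes of the respiratory chain and ATP synthase, 4 were lower and 0 higher in BALB/cByJ, which is 6.9% against 5.76% of all genes and so near the background. With the block 13 (22.4%, against 24.8% of all genes) passed and with the covariate 2, and the median difference was -0.15, against -0.05 for all genes tested. Sdhc, a membrane anchor of succinate dehydrogenase, had 8.51, 8.72, 8.16 and 8.52 in BALB/cByJ, against 9.54, 9.89, 9.33 and 9.60 in DBA/2J. BALB/cByJ was below all other strains, whose means were 9.32 to 9.49 without DBA/2J, and the difference was -1.11 ± 0.14 (adjusted p = 0.00064, and 0.036 with the covariate). The complex I subunits Ndufc1, Ndufab1 and Ndufv2 were lower by -0.85 ± 0.21, -0.78 ± 0.17 and -0.73 ± 0.13, and of these Ndufc1 passed with the covariate (adjusted p = 0.014). In BALB/cByJ Ndufc1 had 8.65, 7.66, 7.82 and 8.78, and Ndufv2 had 9.19, 8.68, 8.33 and 9.14. Arrays 2 and 3, 1 of each preparation, were the low ones, a spread that the standard errors of preparation means do not reflect. A further probe set of Ndufv2 differed by 0.10.

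Of 32 tested glutathione and peroxide genes, 1 was higher and 2 lower in BALB/cByJ (9.38%, against 5.76% of all genes), with 10 (31.2%, against 24.8%) past the test under the block and 1 with the covariate. Mgst3, a microsomal glutathione transferase, had 8.03, 7.80, 8.01 and 7.95 in BALB/cByJ, against 8.96, 9.24, 9.46 and 9.44 in DBA/2J. The difference was -1.33 ± 0.17 (adjusted p = 0.00058, and 0.024 with the covariate); BALB/cByJ was the lowest and DBA/2J the highest of the 8 strains. Gstz1, which acts in tyrosine breakdown, was lower by -0.90 ± 0.20 (adjusted p = 0.024). Gstm2, read by a probe set that may bind other transferases, was higher by 1.18 ± 0.28 (adjusted p = 0.027). Glo1, the glyoxalase that clears methylglyoxal, had 10.06, 9.72, 10.06 and 9.63 in BALB/cByJ and 9.27, 9.60, 9.25 and 9.49 in DBA/2J. Its arrays did not overlap, but 0.47 ± 0.14 did not pass (adjusted p = 0.069, and 0.012 with the block).

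Among proteases and their partners, Ctse, the aspartic protease cathepsin E, had 6.92, 6.74, 6.37 and 7.02 in BALB/cByJ, against 8.81, 8.72, 8.56 and 8.63 in DBA/2J. The difference was -1.92 ± 0.19 (adjusted p = 6e-05, and 0.00063 with the covariate). DBA/2J stood 1.38 above the next strain, SJL/J (adjusted p = 0.0013), and BALB/cByJ lay among the others. Otub1, a deubiquitinase, had 9.22, 8.60, 9.24 and 9.14 in BALB/cByJ and 7.13, 6.33, 7.47 and 7.17 in DBA/2J, a difference of 2.02 ± 0.51 (adjusted p = 0.035) that measured 0.41 with the covariate (adjusted p = 0.75). The remaining genes of the 24 were Ssbp4 at 2.53 ± 0.62, Prp2 at 2.42 ± 0.64 and the zinc finger gene Zfp213 at 2.40 ± 0.44 on the higher side, and AI506816 at -2.21 ± 0.28 and the cell-cycle inhibitor Rb1 at -2.01 ± 0.53 on the lower side. Of these 5, AI506816 passed with the covariate (-2.67, adjusted p = 0.0019), and Ssbp4 measured 1.15 (adjusted p = 0.63) there. The other probe sets of Ssbp4, Prp2 and AI506816 did not pass.

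**Figure D4:**
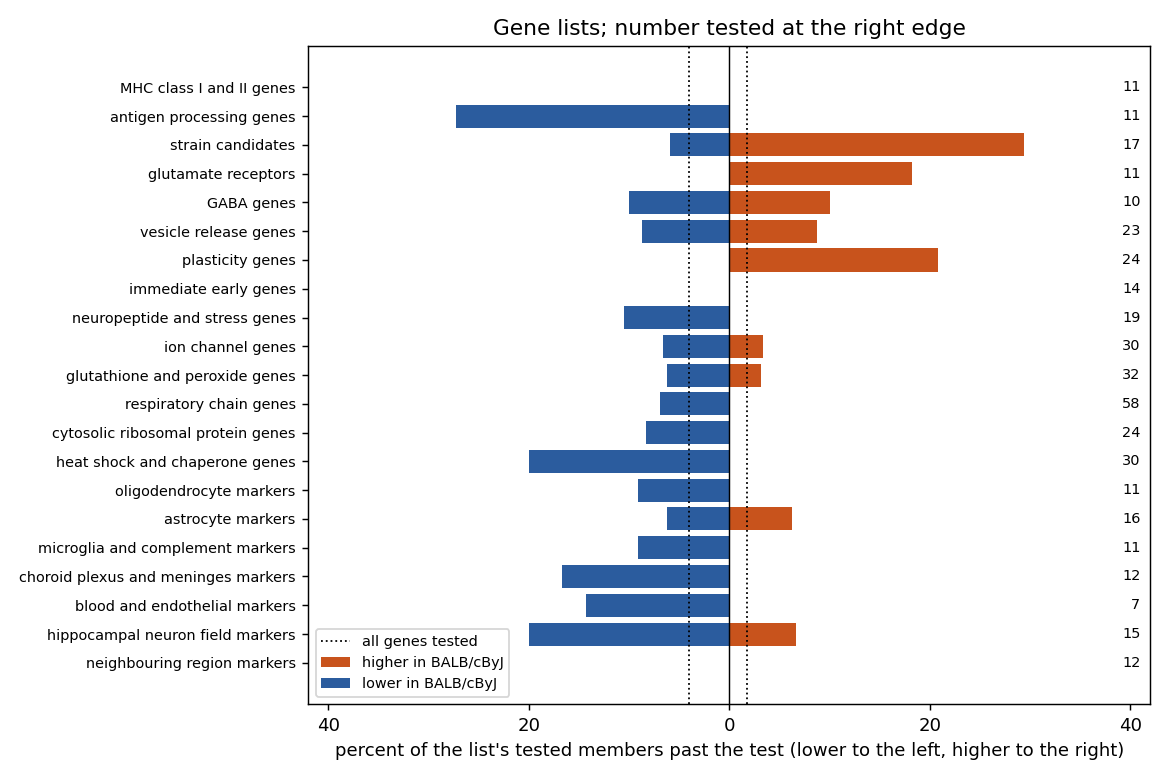
Percent of the tested members of each gene list that passed the test, with those lower in BALB/cByJ to the left and those higher to the right, and the number tested at the right edge. Dotted lines give the share over all 5660 genes tested, 4.03% lower and 1.73% higher. Plasticity genes and glutamate receptors have bars to the right only, and chaperones, respiratory chain genes and antigen processing genes to the left only.

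Of 30 chaperone genes tested, 6 were lower and 0 higher in BALB/cByJ (20%, against 4.03% of all genes lower and 5.76% called), with 14 (46.7%, against 24.8%) past the test under the block and 0 with the covariate. The median difference was -0.42, against -0.05 for all genes tested, and the summed signal was 9509 to 12181 on the BALB/cByJ arrays and 13112 to 14532 on the DBA/2J arrays. Stip1, which links Hsp70 and Hsp90, had 6.53, 6.50, 6.70 and 7.01 in BALB/cByJ, against 7.79, 7.94, 7.48 and 7.53 in DBA/2J (-1.0 ± 0.27, adjusted p = 0.045). Hsp90aa1, the inducible Hsp90, had 11.57, 10.02, 9.60 and 11.11 in BALB/cByJ and 11.52, 10.98, 11.56 and 11.40 in DBA/2J (-0.79 ± 0.17, adjusted p = 0.018). Arrays 2 and 3 of BALB/cByJ were the low ones, and the highest array of all was a BALB/cByJ array. Hspe1, Hspa5, Dnajb6 and Dnaja1 were lower by -0.78, -0.77, -0.60 and -0.52. Arrays 2 and 3 of BALB/cByJ were the low ones for Hspe1 and Hspa5 too. Of 24 tested cytosolic ribosomal protein genes 2 were lower, Rpl13a at -0.76 ± 0.21 and Rpl22 at -0.75 ± 0.19, which is 8.33% against 5.76% of all genes (9, or 37.5%, passed with the block, and 0 with the covariate). The other probe set of Rpl22 differed by 0.82, in the opposite direction (adjusted p = 0.33).

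Ion channel and neuropeptide genes held single changes. Clcn3, a chloride-proton exchanger of endosomes and vesicles, had 8.64, 7.82, 7.72 and 8.81 in BALB/cByJ, against 9.59, 9.73, 9.43 and 9.48 in DBA/2J. BALB/cByJ lay below all other strains, and the difference was -1.31 ± 0.13 (adjusted p = 5.5e-05, and 0.0043 with the covariate). Arrays 2 and 3 of BALB/cByJ, 1 of each preparation, lay below arrays 1 and 4. The preparation means (SD 0.03) average this out, so the standard error does not reflect it. The 3 further probe sets of Clcn3 differed by 0.11, -0.45 and -0.22, with adjusted p of 0.77, 0.43 and 0.47. Kcnma1, the large-conductance calcium-activated potassium channel, was lower by -0.95 ± 0.20 (adjusted p = 0.017), and Cacna1b, the N-type calcium channel, was higher by 0.87 ± 0.23 (adjusted p = 0.045), with the nearest arrays at 7.25 in BALB/cByJ and 7.16 in DBA/2J. These were 3 of 30 tested (10%, against 5.76% of all genes), and 11 (36.7%, against 24.8%) passed with the block and 1 with the covariate. Of 19 neuropeptide and stress genes, Npy1r, a receptor of neuropeptide Y, was lower by -1.42 ± 0.35 (adjusted p = 0.033) and the enkephalin precursor Penk by -0.74 ± 0.18 (adjusted p = 0.033), which is 10.53%, with 6 (31.6%) past the test under the block and 0 with the covariate. Arrays 2 and 3 of BALB/cByJ, at 2.72 and 2.68, were again below arrays 1 and 4, at 4.89 and 4.93, for Npy1r.

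Markers of cell types are given with the share of their list that passed, against 5.76% of all genes tested (24.8% with the block). Of 11 oligodendrocyte markers, Car2 was lower in BALB/cByJ (-0.58 ± 0.13), a share of 9.09%, also with the block. Of 16 astrocyte markers, the glutamate transporter Slc1a2 was higher (0.92 ± 0.25) and the gap junction protein Gja1 lower (-0.81 ± 0.17). This was 12.5%, also with the block. Of 11 microglia and complement markers, Ctss was lower (9.09%), and 4 passed with the block (36.4%). C1qc, Laptm5 and Cd14 measured higher in BALB/cByJ without overlap but did not pass. Their log2 signals were 7.94 to 8.29, 7.64 to 8.19 and 7.51 to 7.70 in BALB/cByJ, against 7.19 to 7.76, 7.08 to 7.44 and 6.84 to 7.20 in DBA/2J. Of 15 markers of hippocampal neuron fields, Bok was higher (0.75 ± 0.20) and Nefl, Calb1 (-0.82 ± 0.17) and Gad1 were lower. Of 12 markers of neighbouring regions 0 passed with limma, 0 with the block, and 0 had an unadjusted p under 0.05. With the covariate, Nefl passed alone among the cell type markers.

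Among markers of choroid plexus, meninges and blood, the 3 genes past the test were lower in BALB/cByJ. Ttr, the transthyretin that choroid plexus makes in quantity, had 6.93, 6.81, 6.45 and 6.70 in BALB/cByJ, against 7.28, 7.55, 7.86 and 8.00 in DBA/2J (-0.95 ± 0.20, adjusted p = 0.019), and in the other strains its mean ran from 6.11 to 8.46. Calml4 was lower by -2.22 ± 0.56 (adjusted p = 0.036) with overlapping arrays. These were 2 of 12 choroid plexus and meninges markers tested (16.67%, against 5.76% of all genes), and 5 passed with the block (41.7%, against 24.8%). The summed signal of the 12 was 2568 to 3063 on the BALB/cByJ arrays and 2304 to 2781 on the DBA/2J arrays. Without overlap but without passing, the collagens Col1a1 and Col1a2 measured higher in BALB/cByJ and Igfbp2 lower. Their signals were 6.58 to 6.96, 9.11 to 9.52 and 6.69 to 7.02 in BALB/cByJ, against 5.93 to 6.33, 8.38 to 8.91 and 7.35 to 7.48 in DBA/2J. Hbb-b2, a beta globin of red cells, had 6.09, 6.57, 6.23 and 6.89 in BALB/cByJ and 7.40, 7.64, 7.25 and 7.37 in DBA/2J (-0.97 ± 0.22, adjusted p = 0.023), while the summed signal of the 7 blood and endothelial markers was 1028 to 1270 in BALB/cByJ and 1063 to 1200 in DBA/2J. Hbb-b2 was the 1 of these 7 that passed (14.29%, against 5.76% of all genes). Ttr, Calml4 and Hbb-b2 did not pass with the covariate, and the part of these tissues in other differences was not tested.

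A list of 24 candidates, many of them picked because they varied among these strains or were named in work on strain behaviour, gave 5 higher and 1 lower of 17 tested, and its count is no independent evidence. Besides Erdr1, Irs2, Grin2b, Slc32a1 and Ctse, the exonuclease Xrn1 was higher, with 4.76, 2.58, 4.85 and 3.72 in BALB/cByJ and 0.38, 0.93, 3.61 and 1.49 in DBA/2J (2.38 ± 0.62, adjusted p = 0.041, and 0.27 with the covariate). These overlapped and were mostly under the filter limit. Kcnj9, a subunit of the G protein-gated potassium channel, had 7.96, 7.66, 7.54 and 7.65 in BALB/cByJ, against 8.34, 8.65, 8.16 and 8.21 in DBA/2J, a difference of -0.64 ± 0.18 that did not pass (adjusted p = 0.054, and 0.0099 with the block). Its other probe set differed by 1.08, in the opposite direction (adjusted p = 0.25). Myo5a, the myosin whose mutation gives the dilute coat of DBA/2J, had 4.95, 3.80, 5.27 and 4.89 in BALB/cByJ and 5.17, 4.74, 5.30 and 5.10 in DBA/2J, which overlapped (-0.35 ± 0.42, adjusted p = 0.62). The other members did not pass: Glo1 is given above, and Alad, Pdxdc1, Gas5, the brightest Wnk1 probe set, Gabra2, Gsr, Thumpd1 and Nnt had differences from -0.34 to 0.36.

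Each set against the 7 other strains, BALB/cByJ stood out more often than DBA/2J. Both preparations of BALB/cByJ alone lay outside the 14 values of the other strains at 213 of the 435 probe sets, 48 higher and 165 lower. DBA/2J alone did so at 51, 29 of them higher and 22 lower in BALB/cByJ. Both strains stood out at 22 and neither at 149. Over all 7453 probe sets BALB/cByJ stood out at 1022 (13.7%) and DBA/2J at 233 (3.13%). With the covariate, 12 of the 213 and 18 of the 51 passed, which is 5.63% and 35.3%.

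**Figure D5:**
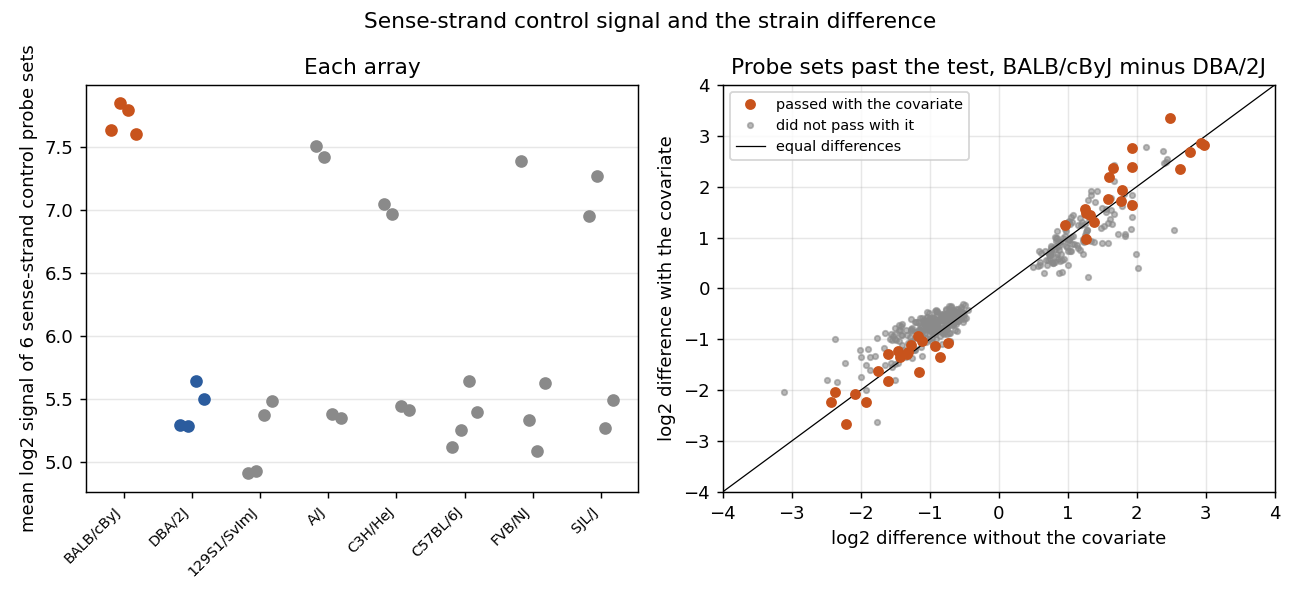
Left, mean log2 signal of 6 sense-strand control probe sets on each array by strain, 7.60 to 7.84 for BALB/cByJ and 5.28 to 5.64 for DBA/2J. Right, log2 difference between BALB/cByJ and DBA/2J with that signal as a covariate (vertical) and without it (horizontal) for the 435 probe sets past the test, with the 38 that passed in both fits in orange, and all differences keep their sign.

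The 38 probe sets that passed in both fits name 31 genes. Several of those not yet described are given here, chosen after their values were seen. Meg3, an imprinted noncoding RNA, had 11.04, 10.77, 11.05 and 10.69 in BALB/cByJ, against 9.26, 9.84, 9.46 and 9.92 in DBA/2J. BALB/cByJ was the highest and DBA/2J the lowest of the 8 strains, and the difference was 1.27 ± 0.16 (adjusted p = 0.00058, and 0.043 with the covariate). Srp9, a protein of the signal recognition particle, had 9.0, 8.47, 8.42 and 8.33 in BALB/cByJ and 7.14, 6.70, 7.02 and 7.04 in DBA/2J (1.58 ± 0.17, adjusted p = 0.00015, and 0.0019 with the covariate). At Srp9 the strains formed separate levels: BALB/cByJ lay with 4 strains at 8.56 to 9.21, and DBA/2J with A/J and FVB/NJ at 6.97 to 7.12.

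Atp6v1d, a subunit of the proton pump that acidifies vesicles, had 7.75, 7.54, 8.04 and 7.80 in BALB/cByJ, against 9.61, 9.47, 9.56 and 9.46 in DBA/2J. The difference was -1.74 ± 0.15 (adjusted p = 1.6e-05, and 0.0015 with the covariate), and SJL/J, at 8.15, shared the low level (0.37 above BALB/cByJ, adjusted p = 0.25) while the other 5 strains lay at 9.39 to 9.52. The proteasome subunit Psmb6 was higher by 1.26 ± 0.22 (adjusted p = 0.0068), and Psma6, a further subunit, was lower by -0.92 ± 0.16 (adjusted p = 0.0061). Dlgap4, a scaffold protein of the postsynaptic density, was higher by 1.32 ± 0.16 (adjusted p = 0.00043), and the adhesion molecule Cntn1 was lower by -1.45 ± 0.18 (adjusted p = 0.00058). Vti1b, a vesicle SNARE, was lower by -1.60 ± 0.20 (adjusted p = 0.00061), and Suclg1, of the tricarboxylic acid cycle, by -1.27 ± 0.16 (adjusted p = 0.00064). All 6 of these also passed with the covariate, with adjusted p between 0.0067 and 0.045. Cntn1 had 8.54, 7.67, 7.57 and 8.79 in BALB/cByJ, against 9.54 to 9.66 in DBA/2J. Suclg1 had 7.80, 7.10, 6.96 and 8.02, against 8.62 to 8.94. At both, arrays 2 and 3 of BALB/cByJ, 1 of each preparation, were the low ones. The standard errors, taken over preparation means, do not reflect that spread.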

How the data were processed

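Hippocampal RNA of 8 inbred strains was measured on 32 Affymetrix U74Av2 arrays. Per the submitters' processing notes the deposited intensities (linear, 1 value per array and probe set) were made with MAS5. Its version, the target of scaling and any detection calls were not given in the sources used here. The mean with 2% trimmed from each end was 100.054 to 100.071 for all arrays, which were therefore taken as scaled. Signals under 1 (2.14% of values) were set to 1 and log2 was taken. Without 66 control probe sets, the brightest 60% were tested, so the limit was a mean signal of 21.3 (log2 4.41), and differences of lower signals depend most on the floor. In the platform annotation 1 gene symbol stood for 10855 probe sets and several for 396, some controls included, and of 12422 non-control probe sets 1193 had no symbol there; those with several were given no name. Entrez numbers matched 10839 to a RefSeq table of GRCm38.p6, which changed 0 symbols. Of 496 pairs of arrays, 0 held identical values.

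Arrays 1 and 2 (first cRNA preparation) and 3 and 4 (second) were averaged, and 1 linear model of 8 strain means was fitted to the 16 values in limma 3.58.1 under R 4.3.3, using lmFit and then eBayes with its trend option (8 residual degrees of freedom). The contrast was BALB/cByJ minus DBA/2J, with Benjamini-Hochberg adjustment over all 7453 probe sets and a threshold of 0.05. The probe set of highest mean stood for a gene in lists and in the MHC region. Suffixes such as _f_at, _s_at, _i_at, _r_at and _g_at mark probe sets that can read several transcripts. Named genes were the 12 highest and 12 lowest past the test with arrays that did not overlap, up to 3 members of each list past the test (or the 2 brightest), further list members past it, and all tested MHC genes and candidates. The members and lists were chosen with earlier results of these data known.

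The series design states that array numbers mark the preparation, so numbers pair the strains. The difference between preparations correlated across probe sets with r of 0.17 for BALB/cByJ and DBA/2J and 0.109 to 0.557 over 28 pairs, and the fit with the preparation as a block is given where it moved a count. Titles carry 6 days, of which both strains share 2 (arrays 1 and 2). Fits on these 2 days, or with the day as a block, took single arrays as independent although those of 1 preparation are technical repeats. Simulated data of 7453 probe sets, with 200 changed in this contrast, gave 40% of 100 differences of 1 and 84% of 100 differences of 2 on the log2 scale, and 10 of 7253 unchanged probe sets were called. The simulated noise was independent between values, with no preparation effect and no control signal tied to strain. These rates therefore need not hold for the measured arrays.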

Additional observations from a re-analysis of the deposited data

Results flagged for a closer look

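Values on single arrays that stood far from the other 3 of their strain were sought in 170 groups of 4 arrays, for 85 genes, with Dixon's criterion, which chance alone meets in about 1 of 20 groups. It was met in 18, 13 in BALB/cByJ and 5 in DBA/2J. On array 1 of BALB/cByJ, Lta was at 3.90 and Lst1 at 4.39, below their other arrays, and Ier3 was at 6.17 and C2 at 5.52, above them. On array 2 of BALB/cByJ, Otub1 was at 8.60, Dxo at 4.72, Pbx2 at 4.84 and Lsm2 at 3.36, below the others, while Cyp21a1 was at 8.35 and H2-Eb1 at 6.69, above them. On array 3 of BALB/cByJ, Flot1 was at 6.68 and Gpank1 at 6.94, below the others, and on array 4 Mog was at 6.42, above them. In DBA/2J, the low values were H2-DMa at 7.37, Ppt2 at 6.32 and Cyp21a1 at 6.70 on array 3 and H2-Ke6 at 6.41 on array 1, and Cfb was high at 5.0 on array 4.

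The sense-strand control probe sets, which no comparison uses as a measurement, gave at least 7.60 on every BALB/cByJ array, against at most 5.64 on the DBA/2J arrays.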

How the results depend on the processing

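The count of 435 probe sets depended on the fit. It was 726 (15.6% higher in BALB/cByJ, against 34.9% of the 435) with arrays centred on their median, which moved the median difference of all probe sets to -0.157, against -0.035. It was 1801 with the replicate block, 1893 with the day as a block, 724 with single arrays and a random block, 669 on the 2 shared days (259 of the 435 among them, all 435 with the same direction) and 214 with no variance trend. With the sense-strand covariate it was 38, and in fits added after the data were seen 200 with the block and the covariate together (16 of the 24 named genes, 24 list members and 2 genes of the MHC region), 103 with single arrays and the covariate, and 304 without the arrays of FVB/NJ. Leaving out 1 preparation or array gave 70 to 525: 127 without BALB/cByJ preparation 1, 298 without its preparation 2, 70 without DBA/2J preparation 1, 85 without its preparation 2 and 207 without array 2 of FVB/NJ, which shares its day with arrays numbered 3 of other strains. Probe sets with 2-fold or more numbered 52, against 218, with an offset of 64. Quantile normalization, the other filters and offsets, and the fit of the 2 strains alone gave 351 to 579. The fits with the day as a block and on the 2 shared days used single arrays. They counted arrays of 1 preparation as independent repeats.

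The count of 1 gene in the MHC region was 3 with median centring, 0 with quantile normalization, 0 without the filter, 0 with the 40% brightest, 2 with an offset of 64, 17 with the replicate block, 2 with the 2 strains alone, 3 with single arrays and a random block, 19 with the day as a block, 2 on the shared days and 0 with the covariate (0 to 2 with 1 array or preparation left out). Of list members, counted once, 49 passed, against 119 with the replicate block, 128 with the day as a block, 24 with no variance trend, 11 with the covariate and 15 to 57 with 1 array or preparation left out (15 to 32 without any 1 preparation). Of the 24 named genes, 11 passed with the 40% brightest, where fewer were tested, 10 with the covariate and 11 to 24 with 1 array or preparation left out (11 to 16 without any 1 preparation). No named gene turned its direction in any of 25 alternatives. Beyond the settings named, the cause of these changes was not tested. Without detection calls, how far low signals lie above background is not known.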

Other observations

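Over the 435 probe sets that differed, C57BL/6J lay nearer to BALB/cByJ at 68 and nearer to DBA/2J at 367, and the other 5 strains lay nearer to DBA/2J at 261 (C3H/HeJ) to 321 (FVB/NJ). Over the 38 that also passed with the sense-strand covariate, C57BL/6J lay nearer to BALB/cByJ at 13 and SJL/J at 26, with the remaining strains at 20 to 22. These counts share the BALB/cByJ and DBA/2J arrays and carry no test. Xist, the RNA of the inactive X chromosome, had log2 signals of 1.14 to 3.56 on the BALB/cByJ arrays and 0.85 to 3.51 on the DBA/2J arrays and was too dim to be tested, while Eif2s3y, of the Y chromosome, differed by -0.52 ± 0.40 (adjusted p = 0.43).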
